A study of Mus musculus with 3 samples.

Results

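Imprinted genes were read out in hippocampal RNA of adult male mice born to older or to young mothers. The members were 40 imprinted genes chosen by name, and every array probe whose gene name equalled a member was taken. All 40 were on the array, with 70 probes of the 39429 probes, and 33 of them (59 probes) were bright enough to be tested, among 19528 tested genes. Of the 40 members, 22 are classed as expressed from the paternal allele, 14 from the maternal allele and 4 as having isoforms of different parental origin. In these classes 19, 10 and 4 genes were tested.

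The study compared male offspring of mothers aged 15 to 18 months (older mothers) with male offspring of mothers aged 3 months (young mothers, the controls). The fathers in both groups were virgin males aged 3 months, and the offspring were killed by cervical dislocation at postnatal day 120. Each group had 3 pools of total RNA, and each pool combined the hippocampi of 3 males. On each of 3 two-colour arrays, an older-mother pool labelled with Cy3 was hybridised against a young-mother pool labelled with Cy5. The sources used here give no strain and do not say whether pools shared litters, so p-values measure the spread between these pools. The dye orientation was the same on every array, so a dye preference of a probe and an effect of maternal age cannot be told apart.

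In genomic imprinting, the allele from 1 parent is silent, and which one depends on DNA methylation laid down in the egg or sperm. Imprinted genes lie in clusters, each with a differentially methylated control region that often acts through a long non-coding RNA. Many paternally expressed members promote foetal growth and many maternally expressed ones restrain it; in the adult brain several are active in neurons, and others mark the choroid plexus and the meninges. The arrays read total RNA of both alleles together and carry no information on which allele was transcribed. The parental classes were assigned by gene, and whether they hold in this tissue was not tested.

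Array values are log2 ratios of older over young mothers, so a value below 0 means less RNA in the older-mother pool. A gene was called when the adjusted p of limma, over all tested probes, was under 0.05. For genes with several probes, the brightest tested probe stands for the gene, and the other tested probes of members are given beside it. The arrays held 44397 spots each, and the median signal over the local background was 58.0 to 62.3 in Cy3 and 153 to 165 in Cy5, with 0 saturated spots.

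Probes of 3 non-coding members are shown because their results differ along the RNA or lie close to background. Each is the 60-base probe sequence at its mm9 position, with CG dinucleotides, the sites of DNA methylation, in capitals where the probe holds any.
Kcnq1ot1, chr7:150434020-150434079, minus strand: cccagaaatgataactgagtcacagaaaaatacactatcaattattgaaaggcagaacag
Kcnq1ot1, chr7:150440140-150440199, minus strand: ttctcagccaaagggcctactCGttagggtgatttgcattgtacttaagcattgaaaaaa
Meg3, chr12:110799558-110799617, plus strand: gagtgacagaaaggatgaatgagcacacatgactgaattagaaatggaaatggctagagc
Meg3, chr12:110809678-110809737, plus strand: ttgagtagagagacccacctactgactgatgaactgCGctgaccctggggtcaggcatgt
H19, chr7:149761492-149761551, minus strand: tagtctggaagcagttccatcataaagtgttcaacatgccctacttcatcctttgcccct
H19, chr7:149762417-149762476, minus strand: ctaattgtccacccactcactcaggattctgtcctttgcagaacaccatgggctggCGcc

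Promoter letters from RefSeq (GRCm38.p6) are shown for 3 places where imprinted transcription starts inside a germline control region or a neighbouring pair can be compared. Peg3 and Usp29 start in opposite directions from 1 stretch of DNA, printed here from start to start with CG in capitals. For Mest and Nap1l5 the 250 bases before the start are printed, with TGCCGC or its reverse complement GCGGCA in capitals; these are the letters that ZFP57, a zinc-finger protein that keeps imprints, binds when methylated.
Peg3 to Usp29, chr7:6730420-6730582, plus strand: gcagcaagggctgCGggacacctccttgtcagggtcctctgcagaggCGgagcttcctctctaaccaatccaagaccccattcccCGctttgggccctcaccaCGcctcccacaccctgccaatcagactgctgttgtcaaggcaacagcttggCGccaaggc
Mest, chr6:30737800-30738049, plus strand: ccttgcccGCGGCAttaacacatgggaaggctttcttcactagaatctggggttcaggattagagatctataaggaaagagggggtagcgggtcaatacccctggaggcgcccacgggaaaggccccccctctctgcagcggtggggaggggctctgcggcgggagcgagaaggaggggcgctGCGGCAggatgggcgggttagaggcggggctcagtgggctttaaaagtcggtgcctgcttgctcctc
Nap1l5, chr6:58907127-58907376, minus strand: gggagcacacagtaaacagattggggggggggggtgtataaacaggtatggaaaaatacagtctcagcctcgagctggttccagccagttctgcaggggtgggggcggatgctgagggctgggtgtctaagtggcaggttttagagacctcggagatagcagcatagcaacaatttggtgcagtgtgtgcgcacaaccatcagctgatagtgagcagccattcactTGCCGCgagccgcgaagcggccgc
The Mest stretch held 2 matches, the Nap1l5 stretch 1 and the Peg3 to Usp29 stretch 0. Over the 51 promoter windows of 300 bases listed for the 32 members that matched the RefSeq table by symbol, TGCCGC on either strand was in 12 (23.5%), belonging to 11 genes. Over all 32851 promoter windows the share was 11.6%, and the median number of CG dinucleotides per window was 14 for the members and 7 for all promoters. The windows are richer in CG than promoters at large, and no test of the motif was made.

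Across the members, 2 genes were higher in the offspring of older mothers (Mkrn3 and Peg3), 6 were lower (Igf2, Dlk1, Magel2, Igf2r, Blcap and Trappc9) and 25 were not called. That is 8 of 33, beside 19.4% of all tested genes called in either direction, 7.79% higher and 11.7% lower. Counted over probes, 7 member probes were higher and 8 lower of 59, beside 18.6% of all probes called, 7.92% higher and 10.7% lower. The second Mkrn3 probe, was above background in the young-mother channel only. A difference of at least 1.5-fold was measured for 2 members, Igf2 and Cdkn1c, of which the second was not called, beside 1.26% of all genes. The member with the largest mean, Cdkn1c, had 106 genes with a larger one among the 19528, and Igf2 had 148. The same sign on all 3 arrays was seen for 22 of 33 members (66.7%), beside 60.7% of all genes. All 8 calls were missed without array 3, when only 29 probes of the whole array were called, while 4 members were called without array 1 and 3 without array 2. When arrays were only centred on their medians, without the loess dye correction, 31 members were called, 5 higher and 26 lower, and the split over all probes went from 2189 higher and 2946 lower to 5997 higher and 17006 lower.

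**Figure D1:**
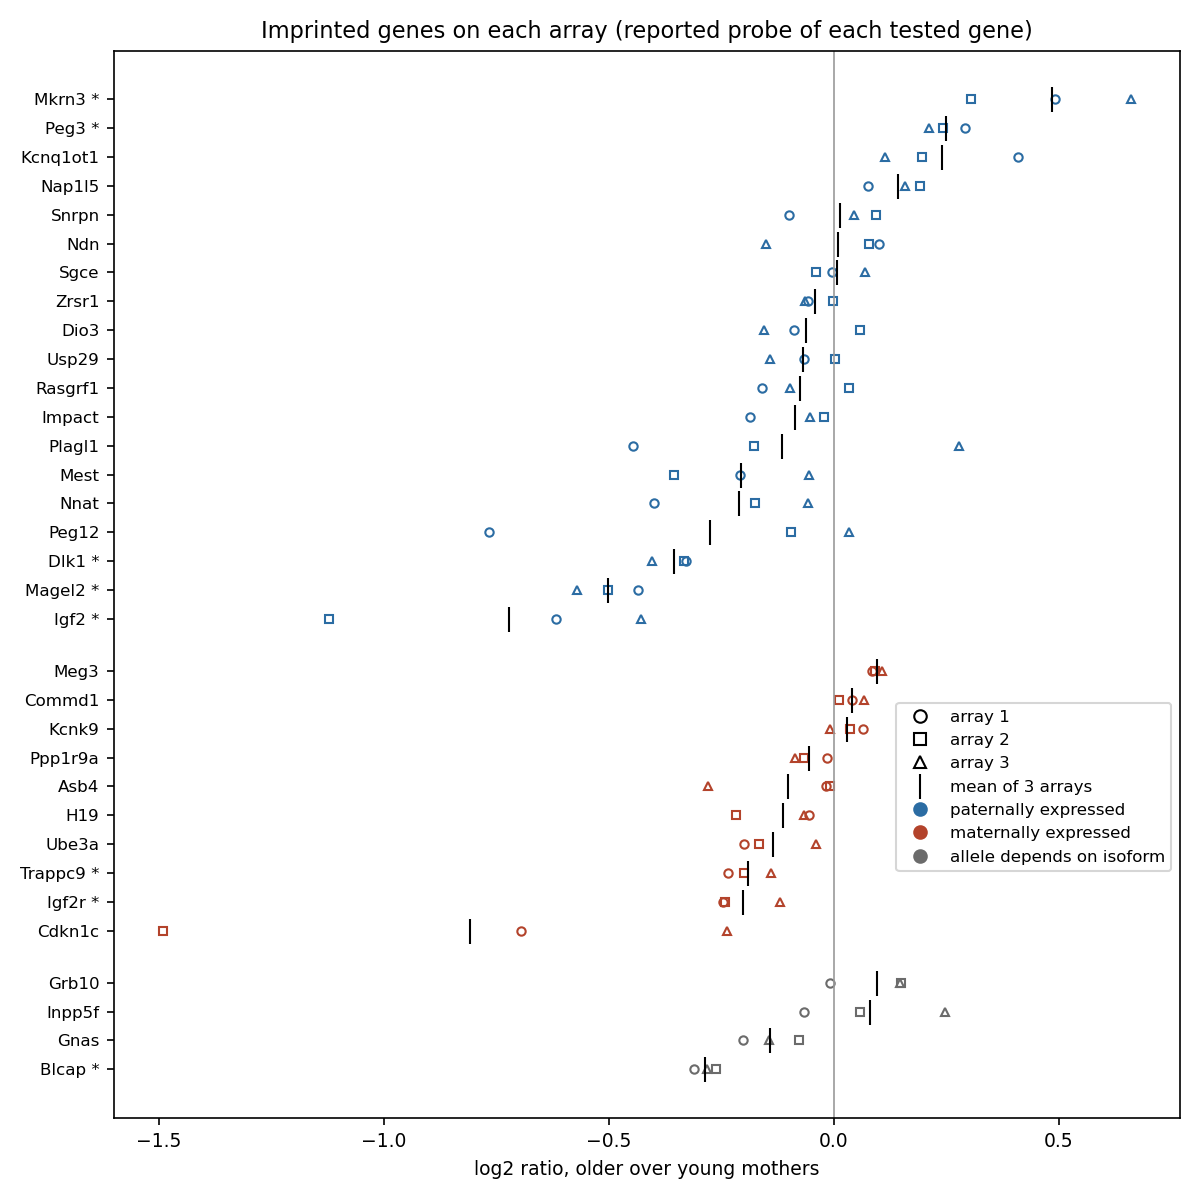
Log2 ratio of older over young mothers (x axis) for the reported probe of each of the 33 tested imprinted genes (y axis), with 1 open symbol per array, a black line at the mean of the 3 arrays and colour for the parental class; a star marks an adjusted p under 0.05 in limma. Most means lie within 0.3 of 0, and Igf2 and Cdkn1c spread far to the left on array 2. Of the starred genes, Mkrn3 and Peg3 alone lie to the right. When arrays were only centred on their median, Peg3 was at -0.26, or 0.13 after subtracting the median over all genes.

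The medians of paternally and of maternally expressed genes both lay slightly below 0. Among the 19 paternally expressed genes tested, 2 were higher, 3 were lower and 14 were not called, beside 7.79% of all genes higher and 11.7% lower, and their median log2 ratio was -0.07 (array medians -0.10, -0.00 and -0.05). Among the 10 maternally expressed genes, 0 were higher, 2 were lower and 8 were not called, with a median of -0.11 (-0.04, -0.11 and -0.08). The 4 isoform-dependent genes had a median of -0.03, with 1 lower. The median over all genes was -0.02, and the difference between the parental classes was not tested. Within the classes the range was wide: -0.72 to 0.49 for paternally and -0.81 to 0.10 for maternally expressed genes.

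The growth factor axis comes first. Igf2, the paternally expressed insulin-like growth factor that drives foetal growth, was 1.65-fold lower in the offspring of older mothers. Its only probe lies at chr7:149839661-149839720 (mm9, as for the other probe positions). Its background-subtracted Cy3 signals in the older-mother pools were 102, 65.4 and 121, and its Cy5 signals in the young-mother pools were 479, 512 and 484, before dye correction. The older-mother signals thus varied more than the young-mother ones. After correction the log2 ratios were -0.62, -1.12 and -0.43, with a mean of -0.72 ± 0.36 (SD, n = 3) and an adjusted p of 0.0268 in limma. All arrays lay below 0, and array 2 had the lowest value. The call held without array 2 (-0.52, adjusted p = 0.0309 in limma) and was missed without array 1 (adjusted p = 0.0555 in limma), without array 3 (0.0523) and with Agilent's processed signals (-1.06, 0.0683). In pooled tissue, fewer cells of a type and less RNA per cell cannot be told apart.

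H19, the maternally expressed non-coding RNA that shares enhancers with Igf2, lies at the other end of the same cluster on chromosome 7. Its brighter probe gave -0.05, -0.22 and -0.07 (mean -0.11 ± 0.09, SD, n = 3; adjusted p = 0.177 in limma). That probe was above background in Cy3 on 2 of the 3 arrays. The other probe gave -0.15 ± 0.17 and was not well above background in Cy3 on any array. H19 was therefore close to the limit of measurement. Under median centring alone its brighter probe was at 0.29, or 0.68 after subtracting the median over all genes.

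Igf2r, a receptor classed as maternally expressed that takes IGF2 to the lysosome, was lower by a small amount. Its ratios were -0.24, -0.24 and -0.12, with a mean of -0.20 ± 0.07 (SD, n = 3; adjusted p = 0.0451 in limma). The call was missed without any 1 of the arrays (-0.24 to -0.18, adjusted p = 0.0740 to 0.233 in limma), with the deposited values (0.0505), with a normexp offset of 16 (0.0688), with Agilent's processed signals (0.0734) and without the filter on dim probes (0.0532). Grb10, an adaptor that dampens insulin and IGF receptor signalling, had a mean of 0.10 ± 0.09 and was not called. Plagl1, a zinc-finger transcription factor, had -0.45, -0.18 and 0.28 at its brightest probe. Its 4 probes had means between -0.11 and 0.09, and none was called; the arrays differed more from one another than the groups did.

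Cdkn1c, the maternally expressed cyclin-dependent kinase inhibitor on the distal part of chromosome 7 (probe at chr7:150644753-150644812), had the largest mean difference of the members. Its ratios were -0.69, -1.49 and -0.24, a 1.75-fold lower mean (-0.81 ± 0.64, SD, n = 3) that was not called (adjusted p = 0.0618 in limma). The values differed by more than 1 unit between arrays 2 and 3. Without array 2 the mean was -0.47 (adjusted p = 0.0762), and the adjusted p over all alternatives was under 0.05 with array weights (0.00559), without background correction (0.0454) and with median centring (0.000687).

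Cdkn1c and Igf2 followed the order of arrays seen in markers of the choroid plexus, the epithelium that secretes cerebrospinal fluid. The 18 tested choroid plexus markers had array medians of -0.82, -1.87 and -0.41, with 5 lower and 0 higher, beside 11.7% and 7.79% of all genes. Normalised levels of these markers were summed on a linear scale, so the brightest markers weigh most. The sum was 19370 to 107500 in the older-mother pools and 119400 to 164000 in the young-mother pools. The share of all genes with levels apart in this way was not counted. The marker means ran from -2.08 to -0.01, and 1 more marker, Cldn1, was too dim to test. The 3 defining markers all gave signal: Ttr was at -2.08 ± 1.70 (not called), Kcnj13 -1.41 ± 0.99 (called) and Sostdc1 -1.24 ± 0.78 (called), each measured above background in either dye throughout. The order array 2 lowest and array 3 highest was taken from these markers, so their own share, 15 of 18 (83.3%), is no test of it. It was found in 8 of 17 markers of leptomeningeal fibroblasts (47.1%), described next, in 6 of 33 imprinted genes (18.2%) and in 12.9% of all genes. The 6 imprinted genes were Cdkn1c, Igf2, Mest, Sgce, Commd1 and Mkrn3.

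Markers of leptomeningeal fibroblasts, cells of the membranes around the brain, were also lower. Of 17 tested, 9 were lower and 0 higher, beside 11.7% and 7.79% of all genes, with a median of -0.38. Their level, summed in the same way, was 51880 to 69660 in older-mother pools and 67130 to 90830 in young-mother pools, ranges that overlapped. On each array the older-mother pool was below the young-mother pool: 67490 and 87660, 51880 and 67130, 69660 and 90830. Aldh1a2 was at -0.46 ± 0.14, Ogn at -0.40 ± 0.10 and Fmod at -0.36 ± 0.07, all called. All 17 were bright enough to test. The part of choroid plexus and meningeal RNA in the values of Igf2 and Cdkn1c was not tested.

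**Figure D2:**
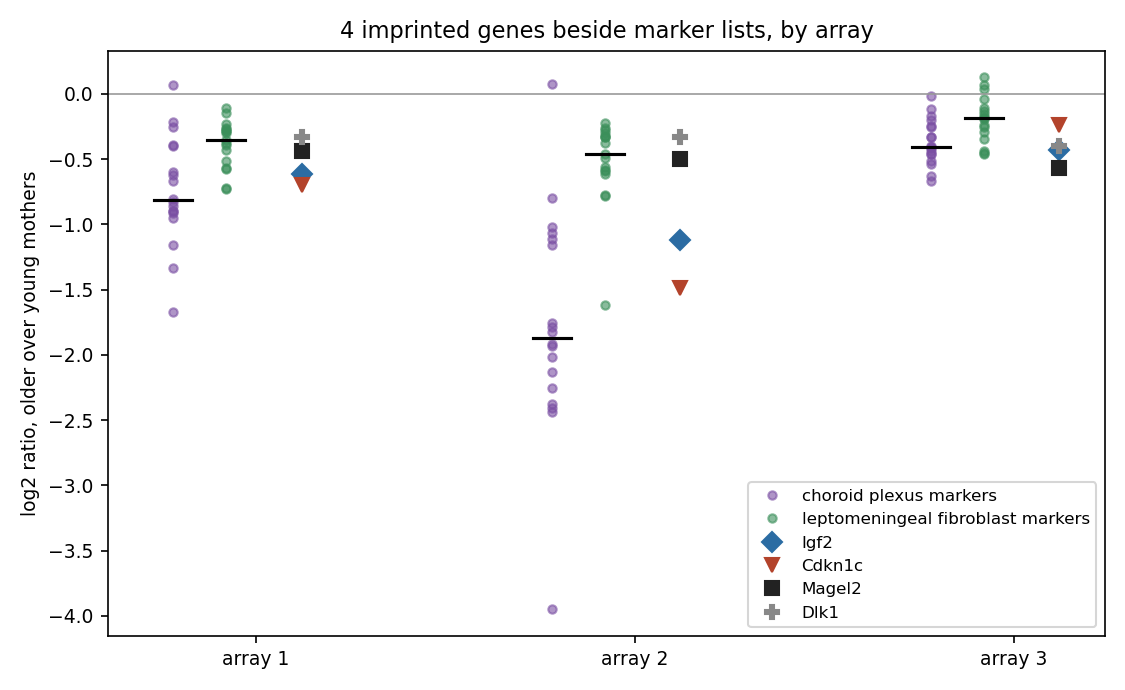
Log2 ratio of older over young mothers (y axis) on each of the 3 arrays (x axis) for choroid plexus markers (purple, 18 genes), leptomeningeal fibroblast markers (green, 17 genes), Igf2, Cdkn1c, Magel2 and Dlk1, with a black line at the median of each marker list. Igf2 and Cdkn1c were lowest on array 2, where the choroid plexus median was -1.87, while Dlk1 and Magel2 stayed within -0.33 to -0.57 on all arrays.

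In the Dlk1 to Dio3 cluster on chromosome 12, Dlk1 was lower and 1 of the 3 Meg3 probes was higher; Mirg, a non-member of the same cluster, is described further on. Dlk1, a paternally expressed transmembrane protein of the Notch ligand family, was 1.28-fold lower at its brighter probe (chr12:110698721-110698781), with ratios of -0.33, -0.33 and -0.40 (mean -0.35 ± 0.04, SD, n = 3; adjusted p = 0.0163 in limma). The arrays nearly coincided. Its dimmer probe pointed the same way at -0.25 ± 0.14 without a call (adjusted p = 0.0523). The call held without array 1 and was missed without array 2 (0.0605) and array 3 (0.0581).

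Meg3, the maternally expressed non-coding RNA of the cluster, had 3 tested probes, all with means above 0. The brightest was at 0.10 ± 0.01 and not called (adjusted p = 0.158 in limma), and the dimmest was at 0.08 ± 0.15 and not called. The probe in transcript variant 1 gave 0.20, 0.27 and 0.20 (mean 0.22 ± 0.04, SD, n = 3) and was higher (adjusted p = 0.0313), but under median centring it was at -0.47, or -0.08 after subtracting the median over all genes. That call was missed without any 1 of the arrays (adjusted p = 0.0589 to 0.192) and with Agilent's processed signals (0.17, 0.0938). Dio3, the enzyme that inactivates thyroid hormone, was at -0.06 ± 0.11 and not called, and Rtl1, a gene derived from a retrotransposon, was too dim to test.

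In the cluster around Snrpn and Ube3a on chromosome 7, 1 paternally expressed gene was lower and another, Mkrn3, had probes of opposite sign. Magel2, a regulator of protein sorting in endosomes that is lost in Prader-Willi syndrome, was 1.42-fold lower at its probe (chr7:69526370-69526429). Its ratios of -0.43, -0.50 and -0.57 (mean -0.50 ± 0.07, SD, n = 3; adjusted p = 0.0132 in limma) all lay well below 0. The call was missed without array 3 (-0.47, adjusted p = 0.0515) and held under every other setting tried.

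Mkrn3, a RING-finger protein known for its part in the timing of puberty, was 1.40-fold higher at its brighter probe (chr7:69563293-69563352), with ratios of 0.49, 0.31 and 0.66 (mean 0.49 ± 0.18, SD, n = 3; adjusted p = 0.0206 in limma). Its second probe (chr7:69562733-69562792), which starts farther along the same transcript, went the other way: -0.45, -0.19 and -0.47 (mean -0.37 ± 0.16; adjusted p = 0.0270), or 0.25 under median centring. That probe was not well above background in Cy3 on any array, so the size of its difference is uncertain. Over the alternative settings the mean of that probe ran from -1.91 to 0.25. The 2 probes of Mkrn3 therefore gave no common direction. The brighter probe was above background in both dyes on all 3 arrays but dim as well. Its background-subtracted signals were 49.0 to 66.8 in Cy3 and 52.0 to 94.6 in Cy5. Its mean ran from 0.37 to 1.31 over the alternative settings. The call of the brighter probe was missed without array 3 (0.40, adjusted p = 0.0603) and with Agilent's processed signals (1.31, 0.0576), and that of the second without array 1 (0.0659) and array 3 (0.0851).

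Ndn, a MAGE family protein of neurons, was at 0.01 ± 0.14 and not called. Peg12, a protein that binds GSK3, had -0.77, -0.09 and 0.04 at the brighter probe and 0.18 ± 0.13 at the other, with neither called. Snrpn, a spliceosome component of neurons, had 3 probes. The brightest was at 0.01 ± 0.10, the next at -0.15 ± 0.09, and the dimmest, which starts at base 1978 of transcript variant 3, was lower at -0.24 ± 0.08 (-0.19, -0.19 and -0.34; adjusted p = 0.0345 in limma). That last call was missed without any 1 of the arrays (adjusted p = 0.0589 to 0.123), with Agilent's processed signals (0.0646) and with offset 16 (0.0556). Ube3a, the ubiquitin ligase whose loss causes Angelman syndrome and which neurons express from the maternal allele, was at -0.13 ± 0.08 and not called (adjusted p = 0.119).

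Peg3 and Usp29 share the start region printed above and are both paternally expressed, but they were not called alike. Peg3, a zinc-finger protein, gave 0.29, 0.24 and 0.21 at its brighter probe, chr7:6658774-6658833 (mean 0.25 ± 0.04, SD, n = 3; 1.19-fold higher; adjusted p = 0.0254 in limma), but -0.26 under median centring, or 0.13 after subtracting the median over all genes. The call was missed without any 1 of the arrays (0.23 to 0.27, adjusted p = 0.0565 to 0.125). Its dimmer probe was at 0.02 ± 0.13. Usp29, a deubiquitinating enzyme, was at -0.07 ± 0.07 and not called (adjusted p = 0.350), and the difference between the neighbours was not tested. Zim1, a maternally expressed zinc-finger gene beside them, was too dim to test.

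In the Kcnq1ot1 domain, Kcnq1ot1 is the paternally expressed antisense RNA that silences neighbours such as Cdkn1c on the same chromosome. Its brighter probe gave 0.41, 0.20 and 0.11 (mean 0.24 ± 0.15, SD, n = 3) and was not called (adjusted p = 0.0633 in limma). The other probe gave 0.33, 0.25 and 0.24 (mean 0.27 ± 0.05) and was higher (adjusted p = 0.0226), and at 0.05 without a call under median centring (0.436). Both probes had all arrays above 0. The call of the second held without array 1 (0.04996) and was missed without array 2 (0.1001) and array 3 (0.0648). Under median centring the brighter probe was at -0.21. After subtracting the median over all genes, the brighter probe was at 0.18 and the second at 0.44. Phlda2, a placental growth restrainer, was too dim to test.

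**Figure D3:**
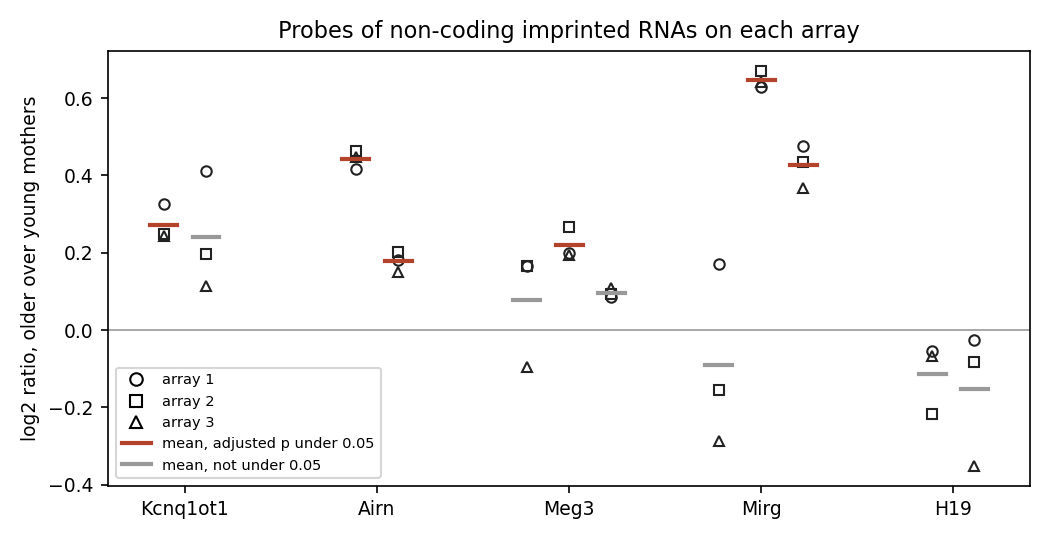
Log2 ratio of older over young mothers (y axis) for every tested probe of 5 imprinted non-coding RNAs (x axis), with 1 open symbol per array and a line at the mean, red where the adjusted p in limma was under 0.05. Peg13, a further imprinted non-coding RNA, is not drawn and was at 0.03 ± 0.08, not called. The red means of Kcnq1ot1, Airn, Meg3 and Mirg lie between 0.18 and 0.65 and the grey means of H19 below 0. Under median centring alone the Meg3 probe was at -0.47, the smaller change of Airn at -0.28 and the smaller change of Mirg at -0.17. After subtracting the median over all genes these were at -0.08, 0.12 and 0.22.

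Nnat and Blcap form a nested pair on chromosome 2. Nnat, a small membrane protein of neurons expressed from the paternal allele, lies in an intron of Blcap, whose isoforms differ in parental origin. Blcap was 1.22-fold lower, with ratios of -0.31, -0.26 and -0.28 (mean -0.28 ± 0.02, SD, n = 3; adjusted p = 0.0198 in limma). Nnat had -0.40, -0.17 and -0.06 at the brighter probe (mean -0.21 ± 0.17; adjusted p = 0.0998) and -0.19 ± 0.24 at the other. All values of the pair lay below 0, with Nnat varying more between arrays. The call of Blcap held without array 1 and was missed without array 2 (0.0881) and array 3 (0.0643).

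Gnas, which encodes the stimulatory G protein alpha subunit and has upstream isoforms of opposite parental origin, had 3 tested probes. The brightest was at -0.14 ± 0.06 (adjusted p = 0.0916 in limma) and the second at -0.19 ± 0.07 (0.0527), neither called. The third, which lies upstream of both on the chromosome, gave 0.20, 0.22 and 0.19 (mean 0.20 ± 0.02) and was higher (adjusted p = 0.0345), although it was above background in Cy3 on 2 arrays only. The Gnas probes thus pointed both ways along the locus. The call was missed without any 1 of the arrays (adjusted p = 0.0683 to 0.202), with Agilent's processed signals (0.45, 0.0718), without background correction (0.11, 0.0871), with the deposited values (0.0604), with trend and robust settings (0.0504) and with separate channels (0.0925).

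On chromosome 15, Trappc9, a subunit of a vesicle tethering complex with a maternal bias in brain, was lower at its brighter probe. Its ratios were -0.23, -0.20 and -0.14 (mean -0.19 ± 0.05, SD, n = 3; adjusted p = 0.0431 in limma). The other probe, in transcript variant 5, was at 0.02 ± 0.07. Kcnk9, the maternally expressed potassium channel of the same cluster, was at 0.03 ± 0.04 and not called, and at -0.44 with Agilent's processed signals. The Trappc9 call was missed without any 1 of the arrays (adjusted p = 0.0878 to 0.217) and under 4 further settings: Agilent's processed signals (0.0734), offset 16 (0.0658), the deposited values (0.0584) and no filter on dim probes (0.0529).

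Rasgrf1, a Ras guanine nucleotide exchange factor of neurons, and Impact, a regulator of translation, each had 1 called and 1 uncalled probe. For Rasgrf1 the brighter probe was at -0.07 ± 0.10. The probe in transcript variant 2 was higher, with 0.25, 0.41 and 0.18 (mean 0.28 ± 0.11, SD, n = 3; adjusted p = 0.0328 in limma), and at -0.34 under median centring, or 0.05 after subtracting the median over all genes. For Impact the brighter probe was at -0.09 ± 0.09 and the dimmer one was higher, with 0.33, 0.14 and 0.30 (mean 0.26 ± 0.11; adjusted p = 0.0359). Both calls were missed without any 1 of the arrays (adjusted p = 0.0646 to 0.164 for Rasgrf1 and 0.0763 to 0.112 for Impact). That of Rasgrf1 was also missed with Agilent's processed signals (0.0723) and offset 16 (0.0512), and that of Impact with Agilent's processed signals (0.42, 0.0508), median centring (0.03, 0.683) and separate channels (0.108).

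The remaining members were small in difference and not called. Mest, a hydrolase of mesodermal tissue, had probes at -0.21 ± 0.15, 0.17 ± 0.09 and 0.02 ± 0.10. Nap1l5, a nucleosome assembly protein, was at 0.14 ± 0.06 and 0.13 ± 0.13. In the Peg10 to Sgce cluster, Sgce (a sarcoglycan) was at 0.01 ± 0.06 and Asb4 at -0.10 ± 0.15 with a second probe at 0.11 ± 0.04. Ppp1r9a (neurabin, an actin-binding protein of synapses) had probes at -0.05 ± 0.04, -0.05 ± 0.07 and 0.07 ± 0.11. Zrsr1 is a retrogene in an intron of Commd1, a copper-handling gene, and the pair was at -0.04 ± 0.03 and 0.04 ± 0.03. Inpp5f, an inositol phosphatase, was at 0.08 ± 0.16 and -0.01 ± 0.05. Peg10, the calcitonin receptor gene Calcr, the cation transporter Slc22a3 and the amino acid transporter Slc38a4 were too dim to test, making 7 untested members with Rtl1, Zim1 and Phlda2.

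The choice of probe mattered for these genes. Of the 19 members with more than 1 tested probe, 12 had probe means on both sides of 0. Mkrn3 had probes called in both directions, but the lower one was measurable in the young-mother pools alone. It was thus tested only through the group where it was high, and the size of its difference is uncertain. With the mean over the probes of a gene in place of the brightest probe, 6 members were called, 1 higher and 5 lower.

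**Figure D4:**
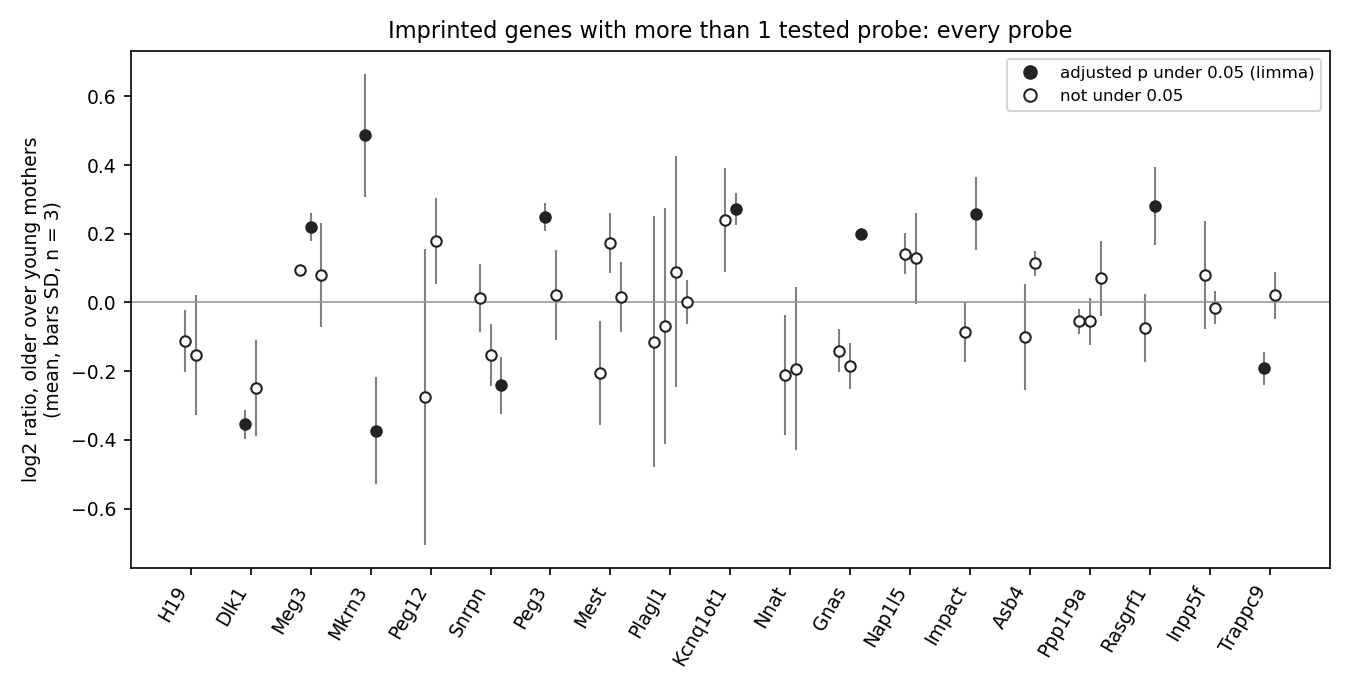
Mean log2 ratio of older over young mothers (y axis, bars SD over 3 arrays) for every tested probe of the 19 imprinted genes with more than 1 tested probe (x axis), brightest probe first; filled points had an adjusted p under 0.05 in limma. Mkrn3 has filled points at 0.49 and -0.37, the second from a probe whose older-mother signal was at background level. Under median centring that probe was at 0.25 and the filled points of Peg3, Meg3 and Rasgrf1 were below 0. After subtracting the median over all genes, that Mkrn3 probe was at 0.64, Peg3 at 0.13, Meg3 at -0.08 and Rasgrf1 at 0.05.

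A further list held 47 other imprinted genes, of which 41 were tested. Of these, 1 was higher, 4 were lower and 36 were not called, beside 7.79% and 11.7% of all genes, with a median of -0.04. Airn, the non-coding RNA antisense to Igf2r, was higher at both tested probes: 0.18, 0.20 and 0.15 at the brighter one (mean 0.18 ± 0.03, SD, n = 3; adjusted p = 0.0448 in limma; -0.28 under median centring) and 0.44 ± 0.02 at the other (adjusted p = 0.0132). Airn and Igf2r, whose transcripts overlap on chromosome 17, thus had called values of opposite sign in the main processing. Under median centring, after subtracting the median over all genes, the brighter Airn probe was at 0.12 and Igf2r at -0.32. The brighter Airn call was missed without any 1 of the arrays (adjusted p = 0.0883 to 0.256), with Agilent's processed signals (0.0921), offset 16 (0.0561) and no filter on dim probes (0.0568), and the other without array 3 (0.0515).

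Mirg, a microRNA host RNA of the same maternally expressed strand as Meg3, was not called at its brightest probe (-0.09 ± 0.24). Its other probes were higher, at 0.65 ± 0.02 (adjusted p = 0.0117 in limma) and 0.43 ± 0.05 (adjusted p = 0.0148; -0.17 under median centring). Each call was missed without array 3 (0.0515), and under median centring the first was at 0.05 and not called (0.370). After subtracting the median over all genes under that setting, the first was at 0.45 and the second at 0.22. The lower genes were Begain (-0.34 ± 0.04), Ano1, a chloride channel (-0.33 ± 0.16), Chrac1, a chromatin accessibility factor that neighbours Trappc9 (-0.27 ± 0.06), and Slc22a2, a cation transporter beside Slc22a3 (-0.27 ± 0.11; 0.03 under median centring). The Slc22a2 probe was above background in Cy3 on 2 arrays only, so it was tested only through the young-mother channel, where it was high. Its call was missed without any 1 of the arrays (adjusted p = 0.0645 to 0.170), with Agilent's processed signals (0.175) and without background correction (-0.07, 0.389). Without array 2 and without array 3, the calls of Ano1 (0.136 and 0.102), Begain (0.0700 and 0.0557) and Chrac1 (0.108 and 0.0797) were missed too, and with Agilent's processed signals those of Ano1 (0.0568) and Chrac1 (0.0723); that of Ano1 was also missed with offset 16 (0.0526). As for Mirg, dimmer probes of 4 further genes were called while the brightest was not, and they are named here after their values were seen: Ago2 (0.45 ± 0.10), Zdbf2 (0.27 ± 0.07), Casd1 (-0.23 ± 0.02) and Ddc (-0.30 ± 0.08, at background level in the Cy3 channel).

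Among 26 regulators of imprints, 24 were tested. Of these, 1 was higher and 1 was lower, beside 7.79% and 11.7% of all genes, and the median was 0.04. Eed, a Polycomb subunit, was higher at 0.18 ± 0.04 (adjusted p = 0.0457 in limma). Under median centring Eed was at -0.40, or -0.003 after subtracting the median over all genes. Ehmt1, a histone methyltransferase, was lower at -0.32 ± 0.03 (adjusted p = 0.0176 in limma) with its other probe at 0.12 ± 0.07. The Eed call was missed without any 1 of the arrays (0.0966 to 0.221), with Agilent's processed signals (0.0846), offset 16 (0.0639), the deposited values (0.0502) and no filter on dim probes (0.0566), and that of Ehmt1 without array 2 (0.0725) and array 3 (0.0617). Dnmt1, which maintains methylation, was at -0.04 ± 0.17, Trim28 at -0.12 ± 0.06, Zfp57 at -0.04 ± 0.01 (other probe 0.19 ± 0.11) and Ctcf at -0.06 ± 0.05, and none of these was called. Dimmer probes of Dnmt3b and Atrx were called while their brightest were not, and they are named here after their values were seen. Dnmt3b was lower at -0.22 ± 0.03 (adjusted p = 0.0310 in limma) and Atrx higher at 0.24 ± 0.13 (adjusted p = 0.0484 in limma).

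Markers of hippocampal neurons were read too. Of these, 10 of 12 were tested, with 2 higher and 1 lower, beside 7.79% and 11.7% of all genes, and a median of 0.00. Ratios between pools of the same tissue label cannot check that label. Prox1 was at -0.14 ± 0.10, Wfs1 at 0.26 ± 0.20 and Zbtb20 at 0.26 ± 0.06, the last called. Called markers outside the first 3 of a list are named here after their values were seen, which for hippocampal neurons are Neurod2 (0.19 ± 0.05) and Neurod6 (-0.34 ± 0.12).

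Neighbouring regions also gave signal, and their counts stand beside 7.79% of all genes higher and 11.7% lower. Of the hypothalamic markers, 9 of 15 were tested (0 higher, 1 lower), 6 had means below 0 and the median was -0.10. Hcrt was at -0.00 ± 0.10, Avp at 0.34 ± 0.67, Oxt at 0.07 ± 1.18 and the called Ghrh at -0.24 ± 0.06. Of the thalamic markers, 8 of 9 were tested (1 higher, 0 lower) with a median of -0.05. Tcf7l2 was at -0.02 ± 0.03, Prkcd at -0.15 ± 0.08, Tnnt1 at -0.09 ± 0.22 and the called Plekhg1 at 0.32 ± 0.17. Plekhg1 was above background in Cy5 on 1 array only, so it was tested only through the older-mother channel, where it was high. Dimmer probes of Lef1 (-0.48 ± 0.07) and Tnnt1 (-0.20 ± 0.05) were called lower while their brightest were not. That of Tnnt1 was at background level in the Cy3 channel.

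Endothelial and mural markers had 2 higher (Flt1 0.38 ± 0.07 and Slco1c1 0.44 ± 0.12) and 5 lower of 12, Cldn5 being lowest at -0.63 ± 0.22, with Pecam1 at -0.01 ± 0.13 and a list median of -0.12. The other lower ones were Pdgfrb (-0.52 ± 0.19), Acta2 (-0.40 ± 0.08), Vtn (-0.39 ± 0.04) and Abcb1a (-0.25 ± 0.06). These counts are of the brightest probe of each gene. The dimmer Slco1c1 probe was at 0.08 ± 0.33 and not called. A dimmer Kdr probe was called lower at -0.50 ± 0.22, while the brightest was at 0.10 ± 0.26 and not called. Over all genes 7.79% were higher and 11.7% lower, the shares to set beside every list in this paragraph. Ependymal markers had 0 higher and 1 lower of 8 (Pltp -0.53 ± 0.24), with 5 below 0, a median of -0.14, Foxj1 at 0.21 ± 0.37, Rsph1 at -0.38 ± 0.37 and Tmem212 at 0.14 ± 0.61. Blood and immune markers had 3 higher and 2 lower of 10 and a median of -0.03, with Hbb-b1 lower at -0.32 ± 0.18, Hba-a1 at -0.10 ± 0.14 and Alas2 at -0.15 ± 0.23. The 3 higher were C1qa (0.31 ± 0.05), Ptprc (0.26 ± 0.01) and S100a8 (0.48 ± 0.24), and the other lower one was Cx3cr1 (-0.46 ± 0.08). S100a8 was above background in Cy5 on 2 arrays, so it was tested only through the older-mother channel, where it was high.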

How the data were processed

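Per the file headers, the scanner files came from Agilent Feature Extraction 10.10.1.1; mean signals, background medians and processed signals are intensity values, the log ratio is log10 of Cy5 over Cy3, and spot flags are of another (other) kind, 0 or 1. The log2 values the authors deposited are Cy3 over Cy5; normexp with offset 50 and loess on the median signals gave the same values to within 5.0e-10, and its column medians were -0.00539, -0.00509 and -0.00557. The genome build in the headers is mm9.

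Scanner values were used for the test. Background was corrected by normexp (offset 50) and dye balance by loess (span 0.3) with limma 3.58.1 in R 4.3.3; control, non-uniform and outlying spots had weight 0. The resulting member values differed from the deposited ones by at most 0.106 (median 0.0156). A probe was tested if 1 and the same dye was well above background on each of the 3 arrays (27631 of 39429). Ratios were tested against 0 by lmFit and eBayes in a two-sided test (degrees of freedom: 2 residual, 3.42 prior), with Benjamini-Hochberg adjustment over all tested probes; errors are SDs over arrays, whose number limits the precision. The script was tested on simulated data. The arrays shared 1 scan, and no batch could be fitted.

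Promoters came from RefSeq. Each member is named, with called genes of the 2 other lists and up to 3 defining markers per cell type. Files were read with the packages data.table (version 1.17.8) and jsonlite (version 2.0.0). The members and lists were chosen with earlier results of these data known. Alternatives covered background correction, dye correction, filters, weights, thresholds, the choice of probe and each array left out. The sequence of 1 probe is not reported here.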

Additional observations from a re-analysis of the deposited data

How the results depend on the processing

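With main counts of 5135 called probes and 8 called imprinted genes, the counts were 9072 and 14 at an adjusted p under 0.1, 2621 and 5 with Agilent's processed signals, 13306 and 17 with array weights and 23003 and 31 with median centring. Leaving out 1 array gave 29 to 3365 probes and 0 to 4 members; the count of 0, without array 3, compares with 15 members at an unadjusted p under 0.05 in limma, as in the main fit. A fit of separate channels without the replicate block, that is, without pairing the pools of an array, called 5563 probes and 8 members (2 higher, 6 lower).

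The median of paternally expressed genes, -0.07 in the main fit, was -0.65 with median centring, -0.023 with the mean over probes, -0.021 with array weights and -0.103 to -0.031 with 1 array left out. That of maternally expressed genes was -0.59 with median centring, -0.15 with Agilent's processed signals, -0.15 with offset 16 and -0.049 with the mean over probes. The median over all genes was -0.39 with median centring, which turned the sign of these: Snrpn -0.71, Meg3 -0.65 (variant 1 probe -0.47), Ndn -0.61, Commd1 -0.54, Nap1l5 -0.53, Sgce -0.52, Eed -0.40, Rasgrf1 variant 2 probe -0.34, Airn -0.28, Peg3 -0.26, Kcnq1ot1 -0.21, Mirg -0.17, Slc22a2 0.034, Asb4 0.19, the second Mkrn3 probe 0.25 and H19 0.29. Other sign changes were of uncalled genes: Snrpn -0.0096 and Kcnk9 -0.44 (Agilent's processed signals), Kcnk9 -0.053 (no background correction), Sgce -0.023 and Dio3 0.017 (array weights) and Ndn -0.00043 (deposited values). With 1 array left out, Ndn ranged from -0.036 to 0.090, Plagl1 from -0.31 to 0.052, Snrpn from -0.026 to 0.070, Inpp5f from -0.0038 to 0.15 and Sgce from -0.022 to 0.033. The cause was not tested. The offset pulls dim probes towards 0, and the Cy3 signals were weaker than the Cy5 signals.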
